A study of Homo sapiens with 12 samples.

Results

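Small Cajal body RNAs (scaRNAs) are noncoding RNAs that guide chemical modification of the small nuclear RNAs (snRNAs) of the spliceosome. The 10 described here are SCARNA2, SCARNA5, SCARNA6, SCARNA7, SCARNA8, SCARNA9, SCARNA10, SCARNA12, SCARNA13 and SCARNA17, out of 58288 genes listed for each of 2 cell lines. Members were chosen by name, with the row of highest average level taken where a symbol had several. The Ensembl identifiers of 8 members carried the symbol, and SCARNA2 and SCARNA10 were found as the rows with the chromosome, start and end that RefSeq gives these genes on GRCh38. The listed rows were unique for 8 of the 10 symbols. SCARNA6 had 1 further row and SCARNA17 had 3, on other chromosomes and with an average log2 CPM (counts scaled to the size of the library) of -2.79 or lower in both lines.

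RNA-seq was carried out on HPB-ALL and KOPTK1, established human T-cell acute lymphoblastic leukemia (T-ALL) lines. In each line 3 libraries came from cells infected with lentivirus carrying an shRNA against SHQ1, and 3 from cells infected with a control shRNA against GFP, and all of these cells were cultured for 48 h with 2 μg/ml puromycin by the labels. SHQ1 is the chaperone that holds dyskerin (DKC1) before H/ACA ribonucleoproteins (RNPs) are assembled, so the study addressed what losing it does to RNA processing in T-ALL. RNA was depleted of rRNA rather than selected for poly(A) tails. The columns of the 12 libraries are headed by numbers that match no sample label and were not used, so SHQ1 shRNA was not compared with control shRNA here, and the level of each RNA is the authors' average over the 6 libraries of a line, both shRNA groups together. These averages carry no replicate error, and the depth behind them is unknown. Levels of the lines are therefore set side by side as a description, with no test, and across tables that were normalized separately.

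A box C/D RNA pairs with its target through the bases just before a box D motif and directs 2′-O-methylation, carried out by fibrillarin (FBL). An H/ACA RNA folds into hairpins whose pockets expose a uridine for pseudouridylation by DKC1, and it ends 3 bases after an ACA motif. Composite scaRNAs hold both kinds of domain. Cajal bodies are nuclear compartments organised by coilin (COIL), where snRNAs are modified and assembled, and H/ACA scaRNAs are kept there through a CAB box that WRAP53 binds. By class, SCARNA2, SCARNA7, SCARNA9 and SCARNA17 are box C/D RNAs, SCARNA8 and SCARNA13 are H/ACA RNAs, and SCARNA5, SCARNA6, SCARNA10 and SCARNA12 are composite.

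Sequences of 9 members were read from the reference transcripts of GENCODE release 44 (all except SCARNA10). The lengths of 8 equal those in the deposited tables, and SCARNA2 was read as the first 420 bases of the longer transcript that starts on the same base. The H/ACA members are shown first, because SCARNA13 (U93, a guide for U2) is the scaRNA that the study measured separately. By qPCR the study found less of it in SHQ1-depleted HPB-ALL cells. Its averages here, and their difference between the lines, mix depleted and control cells. Capitals mark TGAG, the letters of a CAB box, and the ACA that lies 3 bases from the 3′ end.
SCARNA13: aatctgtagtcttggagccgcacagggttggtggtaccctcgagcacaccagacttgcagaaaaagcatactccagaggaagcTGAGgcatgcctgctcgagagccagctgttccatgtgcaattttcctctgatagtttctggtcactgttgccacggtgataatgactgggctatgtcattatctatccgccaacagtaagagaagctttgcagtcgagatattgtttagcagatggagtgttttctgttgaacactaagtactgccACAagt
SCARNA8: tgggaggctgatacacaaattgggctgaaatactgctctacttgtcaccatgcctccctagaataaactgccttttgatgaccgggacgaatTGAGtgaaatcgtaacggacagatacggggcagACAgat

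SCARNA13 spans 275 bases and SCARNA8 (U92, another U2 guide) 131. Both held 1 TGAG and the terminal ACA. An ACA 3 bases from the end was present in 60.3% of 400 SNORA transcripts (the nucleolar H/ACA family) and in 2.30% of 391 SNORD transcripts (the nucleolar box C/D family), each searched on the transcript strand. TGAG is short and was found in all 9 members, in 43.3% of SNORA and in 79.0% of SNORD transcripts, so its presence does not set these RNAs apart.

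The composite pair SCARNA5 (U87) and SCARNA6 (U88) lies in 1 gene, and both are shown whole so that they can be compared. Capitals mark TGATGA (the core of box C), CTGA (box D) and, before the last CTGA of SCARNA5, a run complementary to U4. A run here is 8 or more bases complementary to U1, U2, U4, U6 or U12 that end at most 2 bases before CTGA.
SCARNA5: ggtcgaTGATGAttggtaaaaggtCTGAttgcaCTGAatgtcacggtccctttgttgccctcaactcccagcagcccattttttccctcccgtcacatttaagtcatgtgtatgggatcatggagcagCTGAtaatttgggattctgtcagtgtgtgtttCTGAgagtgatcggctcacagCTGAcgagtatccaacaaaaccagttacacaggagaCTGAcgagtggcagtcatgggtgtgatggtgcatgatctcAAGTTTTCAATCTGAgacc
SCARNA6: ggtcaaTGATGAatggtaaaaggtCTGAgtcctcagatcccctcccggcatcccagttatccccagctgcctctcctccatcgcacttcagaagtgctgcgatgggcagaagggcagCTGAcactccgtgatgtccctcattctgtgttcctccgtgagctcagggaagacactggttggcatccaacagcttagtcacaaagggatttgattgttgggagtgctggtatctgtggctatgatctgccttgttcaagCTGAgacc

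SCARNA5 and SCARNA6 each held 1 TGATGA near the 5′ end and a CTGA near the 3′ end. The run of SCARNA5 was 11 bases long (258 to 268) and complementary to bases 61 to 71 of U4 (RNU4-1). The base of the snRNA that pairs with the fifth base before box D is the one that a box C/D guide methylates, and for SCARNA5 this was base 65 of U4. In a global alignment SCARNA5 and SCARNA6 were identical at 185 of 291 columns (63.6%), the highest identity among all pairs of the 9 sequences, of which the next was 50.3% (SCARNA6 and SCARNA13).

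The stretches of SCARNA7 (U90) and SCARNA9 (mgU2-19/30) that hold such a run are printed with up to 12 bases on each side, followed by the snRNA stretches they complement, in which capitals mark the paired bases.
SCARNA7 bases 171 to 207: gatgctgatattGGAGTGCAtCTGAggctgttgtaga
SCARNA9 bases 33 to 69: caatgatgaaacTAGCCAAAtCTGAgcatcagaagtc
SCARNA9 bases 323 to 353: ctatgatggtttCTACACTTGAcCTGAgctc
U1 bases 55 to 86: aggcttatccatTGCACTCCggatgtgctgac
U2 bases 4 to 35: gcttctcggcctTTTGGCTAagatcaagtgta
U2 bases 15 to 48: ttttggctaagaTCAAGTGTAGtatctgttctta
U4 bases 49 to 83: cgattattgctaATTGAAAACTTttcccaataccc

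SCARNA7 was complementary to bases 67 to 74 of U1 (RNU1-1), with base 70 at the fifth position. SCARNA9 held a pair of runs against U2 (RNU2-2P), 1 near each end, to bases 16 to 23 and 27 to 36, with bases 19 and 30 at the fifth position. The positions 19 and 30 are those in the RNA's older name. Across the 9 sequences, 4 held at least 1 run against the 5 snRNAs searched, as did 12.02% of SNORD and 1.5% of SNORA transcripts, which are shorter. The 4 include SCARNA13, with 1 run of 8 bases against U12, although H/ACA RNAs do not guide methylation, and a match is a description of letters, not a site. SCARNA2, SCARNA8 and SCARNA17 had none. SCARNA2 (mgU2-25/61 in RefSeq) is a box C/D guide of U2, which was searched. The lack of a run under this rule therefore does not mean that an RNA is no guide. The target of SCARNA6 and SCARNA12 was not among the snRNAs searched, so the share of members with a run depends on that choice and says nothing of these 2 RNAs. TGATGA was found in 7 of the 9 members, in 64.5% of SNORD and in 3.25% of SNORA transcripts, and was absent from SCARNA13 and SCARNA17.

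SCARNA17 (U91) is annotated in 2 ways, and the difference decides what its level measures. RefSeq gives 1 gene of 421 bases at chr18:49814023-49814443 (GRCh38). The tables list 2 rows within it: one with the symbol SCARNA17 at chr18:49814133-49814276 (144 bases) and one with the symbol SCARNA18 at chr18:49814361-49814443 (83 bases), with the other 194 bases of the RefSeq gene outside both. Every level given here for SCARNA17 is that of the 144-base row, not of the whole RefSeq gene. In the SCARNA17 row capitals mark its longest run complementary to U12 and its CTGA, and in the SCARNA18 row runs before CTGA.
SCARNA17: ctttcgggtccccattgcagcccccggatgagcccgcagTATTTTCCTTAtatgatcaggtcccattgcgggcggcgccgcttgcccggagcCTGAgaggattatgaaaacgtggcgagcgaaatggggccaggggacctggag
SCARNA18: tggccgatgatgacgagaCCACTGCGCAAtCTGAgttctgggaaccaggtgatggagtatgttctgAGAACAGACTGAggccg
U4 bases 1 to 27: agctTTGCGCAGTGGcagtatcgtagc

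The row named SCARNA17 held 11 bases (40 to 50) complementary to bases 19 to 29 of U12 (RNU12-2P), the minor spliceosome snRNA, not adjacent to its CTGA. The 11-base complement to U4 (bases 5 to 15, with base 8 at the fifth position) lay in the SCARNA18 row, together with TGATGA and a second, 8-base run against U2. The SCARNA17 row had a mean level of 26.0 RPKM in HPB-ALL and 39.3 in KOPTK1. Here RPKM is the authors' average CPM divided by the listed length in kilobases. The SCARNA18 row had 15.5 and 20.3 RPKM, so the U12 part was the higher of the 2 rows in both lines, by 1.68-fold and 1.93-fold. The part of their lengths, 144 and 83 bases, in this ratio was not tested.

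All 10 scaRNAs were detected in both lines, and each reached an average log2 CPM of 0 in 1 or both of them. Over the members the mean level ranged from 7.43 RPKM (SCARNA8) to 72.9 RPKM (SCARNA2) in HPB-ALL, a 9.80-fold range, and from 7.73 to 79.9 RPKM in KOPTK1 for the same 2 RNAs, a 10.3-fold range. SCARNA8 is also the shortest member (131 bases) and SCARNA2 the longest (420), and the part of length in these levels was not tested. The median of the 10 was 34.3 RPKM in HPB-ALL and 41.1 in KOPTK1. Among the 22778 genes that reached the same minimum in either line, the median was 6.01 and 6.35 RPKM. Their median listed length was 2430 bases, against 275.5 for the members. The same minimum in CPM is a higher RPKM for a shorter gene. These medians are therefore not like for like, and the part of length and filter in them was not tested. SCARNA8 lay close to the minimum, with an average log2 CPM of -0.04 in HPB-ALL and 0.02 in KOPTK1.

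**Figure D1:**
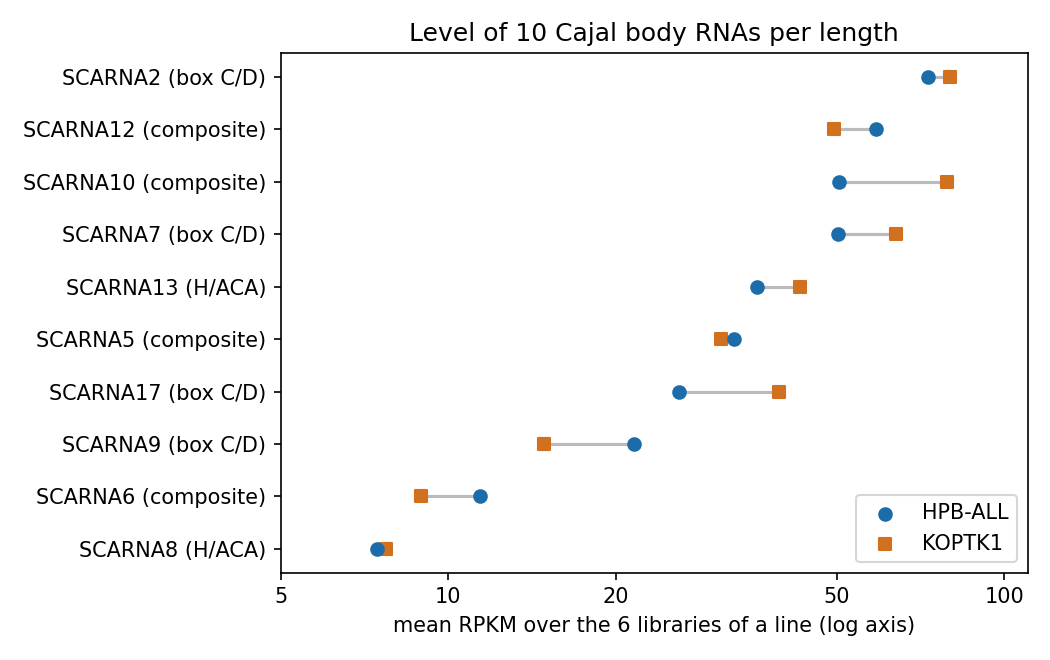
Mean RPKM of each scaRNA (log axis) in HPB-ALL (circles) and KOPTK1 (squares), ordered by the HPB-ALL level, 1 value per line and RNA with no replicate error. SCARNA2 is highest and SCARNA8 lowest in both lines, and SCARNA10, SCARNA17 and SCARNA9 have the widest gaps between the lines.

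Among the box C/D members, SCARNA2 (a U2 guide, chr1:109100193-109100612) was the most abundant per length, at 72.9 RPKM in HPB-ALL and 79.9 in KOPTK1. SCARNA2 exceeded 96.9% and 97.5% of the genes past the filter, whose median length was 2430 bases. Its 420 bases lie wholly within a second listed row of 427 bases, ENSG00000270066, whose RPKM of 71.7 and 78.7 was almost equal. Reads that fall on both rows cannot be assigned to 1 of them, so these levels count the same RNA and the value of SCARNA2 depends on how shared reads were counted. The sum of both rows was 146 RPKM in HPB-ALL and 160 in KOPTK1, which is too high if shared reads were counted in each row. SCARNA7 (chr3:160514907-160515236), the U1 guide, had 50.1 RPKM in HPB-ALL and 63.7 in KOPTK1.

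SCARNA9 (chr11:93721513-93721865) guides U2 like SCARNA2 but was 3.38-fold lower per length in HPB-ALL and 5.38-fold lower in KOPTK1, at 21.6 and 14.8 RPKM. A pair of short rows with no symbol lies within its 353 bases. ENSG00000275146 covers bases 30 to 109, which hold the run against U2 bases 16 to 23, and ENSG00000273885 covers bases 285 to 353, which hold the run against bases 27 to 36. The first row had 68.8 RPKM in HPB-ALL and 44.05 in KOPTK1, and the second had 22.9 and 18.4, a ratio of 3.010 and 2.394. Per length both short rows thus stood above the whole of SCARNA9 in both lines. In average log2 CPM both lay below it. The values were 2.46 and 0.68 against 2.93 in HPB-ALL, and 1.82 and 0.36 against 2.39 in KOPTK1. Adding the CPM of the short rows to SCARNA9 gave 41.7 and 28.5 RPKM, which moved SCARNA9 from rank 8 to rank 5 in HPB-ALL and left it at rank 8 in KOPTK1 when rows sharing bases were summed for all members. These sums are too high if shared reads were counted in each row, so the change of rank depends on that counting.

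Among the composite members, SCARNA12 (U89, chr12:6967337-6967606) had 58.8 RPKM in HPB-ALL and 49.3 in KOPTK1. SCARNA10 (U85, chr12:6510222-6510551) had 50.3 and 78.7 RPKM. Bases 54 to 301 of SCARNA10 are also listed as ENSG00000276232, with an average log2 CPM of 4.05 and 4.69 against 4.05 and 4.70 for SCARNA10 itself, so that almost the same count stood in both rows, and their sum was 100.4 and 157 RPKM. That sum is too high if shared reads were counted in each row. SCARNA5 (chr2:233275727-233276002) had 32.6 and 30.9 RPKM. SCARNA6 (chr2:233288676-233288940) had 11.4 and 8.93 RPKM, the lowest of the 4. All 4 guide U5, and SCARNA12 was 5.17-fold above SCARNA6 in HPB-ALL and 5.52-fold above it in KOPTK1.

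Of the H/ACA members, SCARNA13 (chr14:95533355-95533629) had 36.0 RPKM in HPB-ALL and 42.9 in KOPTK1, and SCARNA8 (chr9:19063656-19063786) had 7.43 and 7.73, so SCARNA13 was 4.84-fold and 5.54-fold higher. SCARNA8 is the shorter, at 131 against 275 bases, and the part of length in this ratio was not tested. SCARNA13 took rank 5 of the 10 in both lines. In HPB-ALL its neighbours in the order were SCARNA7, 1.39-fold above it, and SCARNA5, 1.10-fold below it. In KOPTK1 they were SCARNA12, 1.15-fold above, and SCARNA17, 1.09-fold below. Without a spread over libraries none of these steps can be called a difference. The SNORA or SNORD gene nearest to SCARNA13 in level, among 205 past the filter, was SNORD10 in HPB-ALL (35.5 RPKM) and SNORD45C in KOPTK1 (42.6 RPKM).

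In KOPTK1 the order ran SCARNA2, SCARNA10, SCARNA7, SCARNA12, SCARNA13, SCARNA17, SCARNA5, SCARNA9, SCARNA6 and SCARNA8. In HPB-ALL it ran SCARNA2, SCARNA12, SCARNA10, SCARNA7, SCARNA13, SCARNA5, SCARNA17, SCARNA9, SCARNA6 and SCARNA8. The lines placed 5 of the 10 RNAs at the same rank (SCARNA2, SCARNA6, SCARNA8, SCARNA9 and SCARNA13). The closest neighbours were SCARNA10 and SCARNA7 in HPB-ALL, at a ratio of 1.004, and SCARNA2 and SCARNA10 in KOPTK1, at 1.015.

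The median level of the members lay above those of the related families. The members were chosen by name with earlier results of these data known, and all of them passed the filter. A chosen subset is thus set beside whole families, and the order of the medians is a description only. The SNORA symbols took 388 rows, of which 101 (26.0%) passed the filter, with a median of 11.4 RPKM in HPB-ALL and 13.5 in KOPTK1. The SNORD symbols took 331 rows, of which 104 (31.4%) passed, with medians of 21.2 and 23.0 RPKM. The median listed length past the filter was 275.5 bases for the members, 134 for SNORA and 83.5 for SNORD, and the part of length in these levels was not tested. A further 36 rows carry a SCARNA symbol, of which 6 passed the filter, with medians of 12.3 RPKM in HPB-ALL and 16.0 in KOPTK1. Of these 6, SCARNA21 (139 bases) had 128 RPKM in HPB-ALL and 120 in KOPTK1, above the single row of every member. It stood 1.753-fold and 1.497-fold above the row of SCARNA2 (420 bases). With rows sharing bases summed, SCARNA2 had 146 and 160 RPKM, above SCARNA21, and SCARNA10 had 100.4 and 157. This order therefore depends on how shared reads were counted. SCARNA22 had 20.8 and 20.3 RPKM, SCARNA3 9.13 and 11.8, SCARNA24 8.55 and 9.30, and SCARNA1 6.61 and 6.96. TERC, the telomerase RNA, which ends in an H/ACA domain with a CAB box, had 44.3 and 46.7 RPKM, close to the 36.0 and 42.9 of SCARNA13.

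**Figure D2:**
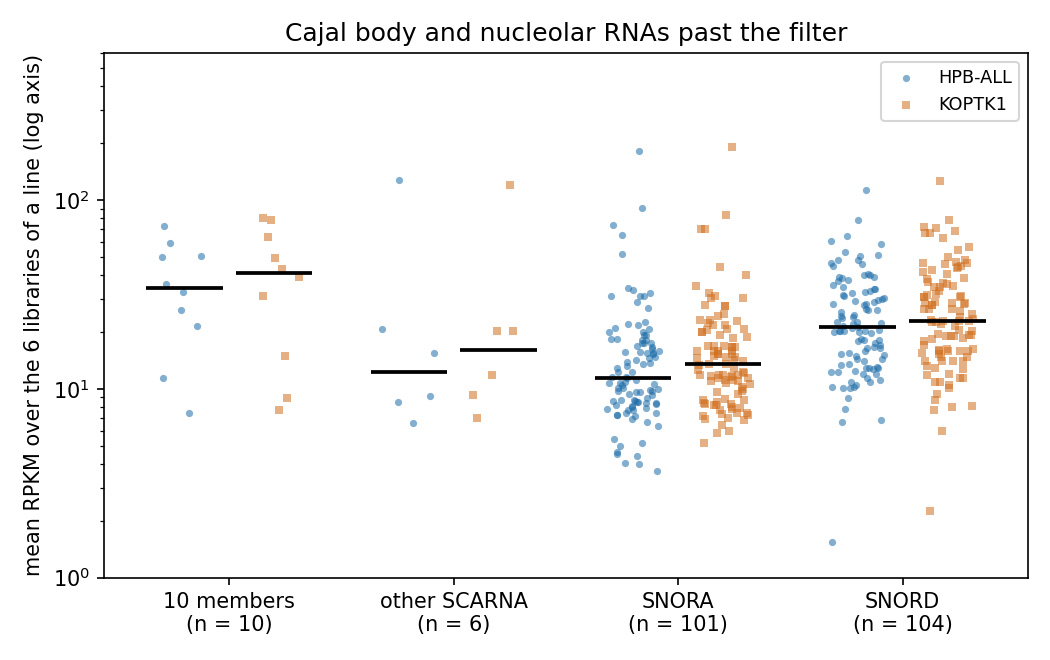
Mean RPKM (log axis) in HPB-ALL (circles) and KOPTK1 (squares) of the 10 members, the 6 other SCARNA rows, 101 SNORA and 104 SNORD genes past the filter, 1 point per gene, with black bars at the medians. The medians of the members, 34.3 and 41.1, lie above those of the other classes, whose ranges overlap the members. The members were chosen by name, whereas the other classes hold every row of their symbols past the filter.

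None of the 10 scaRNAs differed by 2-fold or more between HPB-ALL and KOPTK1, where 13.1% of the 22778 genes past the filter did. Among the 22430 genes at 1 RPKM or more in both lines, which include all 10 members, the share was 6.94%. The members' differences in average log2 CPM (HPB-ALL minus KOPTK1) ran from -0.65 to 0.54, with a median of -0.09 against -0.02 over all genes past the filter. Their median absolute difference was 0.30 and that of all these genes 0.32. Toward KOPTK1, SCARNA10 had a difference of -0.65 (1.56-fold) and SCARNA17 of -0.60 (1.51-fold), the 2 members past 1.5-fold, a size that 27.3% of genes reached. Toward HPB-ALL, SCARNA9 had 0.54 (1.45-fold), SCARNA6 0.35 and SCARNA12 0.26. SCARNA13 differed by -0.25, SCARNA7 by -0.35, SCARNA2 by -0.13, SCARNA5 by 0.08 and SCARNA8 by -0.06. The members' shares of the genes past 2-fold and 1.5-fold, 0 and 2 of 10, are counts of few genes and were not tested.

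**Figure D3:**
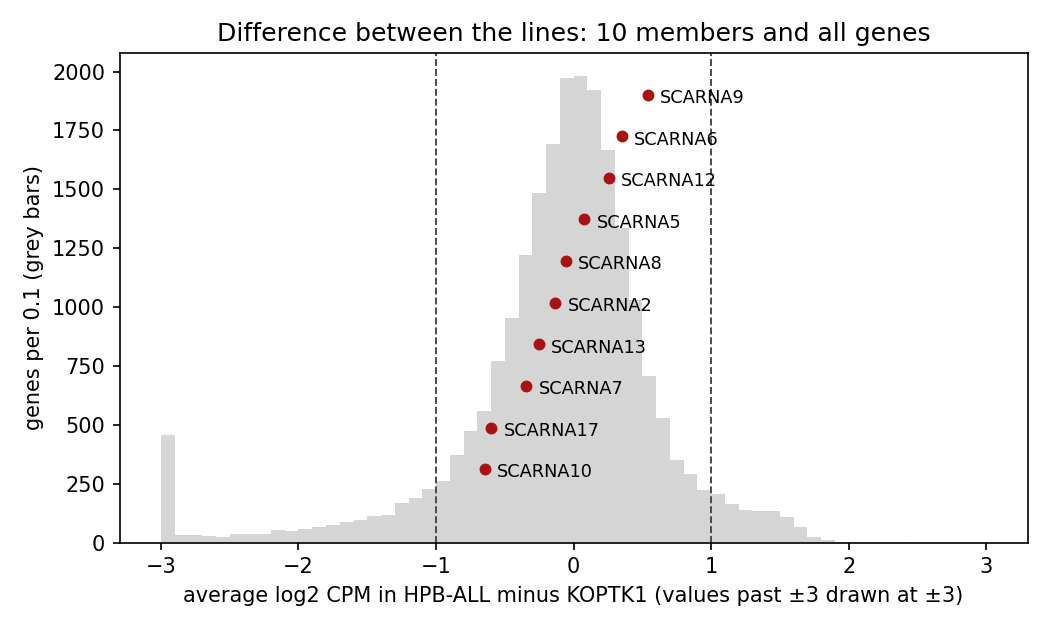
Distribution of the difference in average log2 CPM, HPB-ALL minus KOPTK1, over 22778 genes (grey bars, 0.1 wide), with the 10 scaRNAs as points at heights chosen only to separate them and dashed lines at 2-fold. All 10 points lie between the dashed lines.

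The tables were not symmetric between the lines. Among genes whose average log2 CPM was 5 or more in HPB-ALL the largest excess over KOPTK1 was 1.87 (3.66-fold), whereas among genes at 5 or more in KOPTK1 the largest excess over HPB-ALL was 6.03 (65.1-fold). If genes higher in HPB-ALL are held to a small excess in these tables, the differences toward HPB-ALL, and with them the count of members past 2-fold, would be too small, and this was not tested. Of markers chosen after their values were seen, those of T cells were present in both lines, with CD3D at 295 and 301 RPKM, CD3E at 209 and 231 and CD7 at 48.4 and 40.7 in HPB-ALL and KOPTK1. The markers of other blood cells MS4A1, MPO and CD33 lay between 0.046 and 0.38 RPKM in HPB-ALL and between 0.089 and 0.19 in KOPTK1.

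Most scaRNAs are released from the introns of other genes, and 9 of the 10 members lay in an intron of a listed gene on the same strand, with no base in its exons. SCARNA2 had no such host. The hosts were 8 genes, with SCARNA5 and SCARNA6 in separate introns of ATG16L1, an autophagy gene. SCARNA7 lay in KPNA4 (importin alpha), SCARNA8 in HAUS6 (augmin complex), SCARNA9 in CEP295 (a centriole protein), SCARNA10 in NCAPD2 (a condensin subunit) and SCARNA12 in PHB2 (prohibitin). SCARNA13 and SCARNA17 lay in SNHG10 and SNHG22, host genes that encode no protein.

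Position within the intron differed. SCARNA9, SCARNA10 and SCARNA12 sat in short introns of 541, 495 and 427 bases, 88, 77 and 88 bases before the next exon. SCARNA8 sat 75 bases before the next exon of an intron of 6638 bases. SCARNA13 lay 405 bases after the preceding exon and 293 before the next, and SCARNA7 lay 215 after and 725 before. SCARNA17 began 70 bases after the first exon of SNHG22, in an intron of 25213 bases. SCARNA5 and SCARNA6 lay 1565 and 913 bases before the next exon.

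The levels of scaRNAs and of their hosts differed by varying factors. Per length, 5 of the 9 intronic members stood above the exons of their host in HPB-ALL and the same number in KOPTK1. With rows sharing bases summed the number was 6 in each line, since SCARNA9, at 0.86 and 0.93 times the level of CEP295 on its own row, then stood above it. The summed level is too high if shared reads were counted in each row, so this count depends on that counting. SCARNA13 was 2.70-fold above SNHG10 in HPB-ALL and 3.84-fold in KOPTK1, against 13.3 and 11.2 RPKM of the host. SCARNA17 was 88.1-fold and 87.6-fold above SNHG22, which had 0.295 and 0.449 RPKM and did not pass the filter in either line. SNHG22 starts on the same base as the SCARNA17 gene of RefSeq, which holds 40 of its exon bases, so by that annotation the host and the scaRNA are not separate. At the other end, SCARNA8 was 3.45-fold and 3.42-fold below HAUS6, which had 25.6 and 26.4 RPKM. SCARNA5 and SCARNA6, in introns of 1 gene, differed from each other by 2.86-fold in HPB-ALL and 3.47-fold in KOPTK1, SCARNA5 being the higher. Reads from the unspliced host and from the scaRNA cannot be told apart over these bases.

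Between the lines, 6 of the 9 intronic members had the sign of their host's difference, and 5 of 8 without SCARNA17, whose host did not pass the filter. SCARNA9 (0.54) had that of CEP295 (0.65), SCARNA10 (-0.65) that of NCAPD2 (-0.35), SCARNA6 (0.35) and SCARNA5 (0.08) that of ATG16L1 (0.45), and SCARNA17 and SNHG22 differed by -0.60 each. SCARNA8 and HAUS6 differed by -0.06 and -0.04. The sign was opposite for SCARNA13 (-0.25) and SNHG10 (0.25), for SCARNA12 (0.26) and PHB2 (-0.25), and for SCARNA7 (-0.35) and KPNA4 (0.04). ATG16L1 is counted for both SCARNA5 and SCARNA6. Of the 22778 genes past the filter, 11031 were higher in HPB-ALL and 11747 in KOPTK1, so unrelated genes would often share a sign. These signs come from single averages and carry no test.

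**Figure D4:**
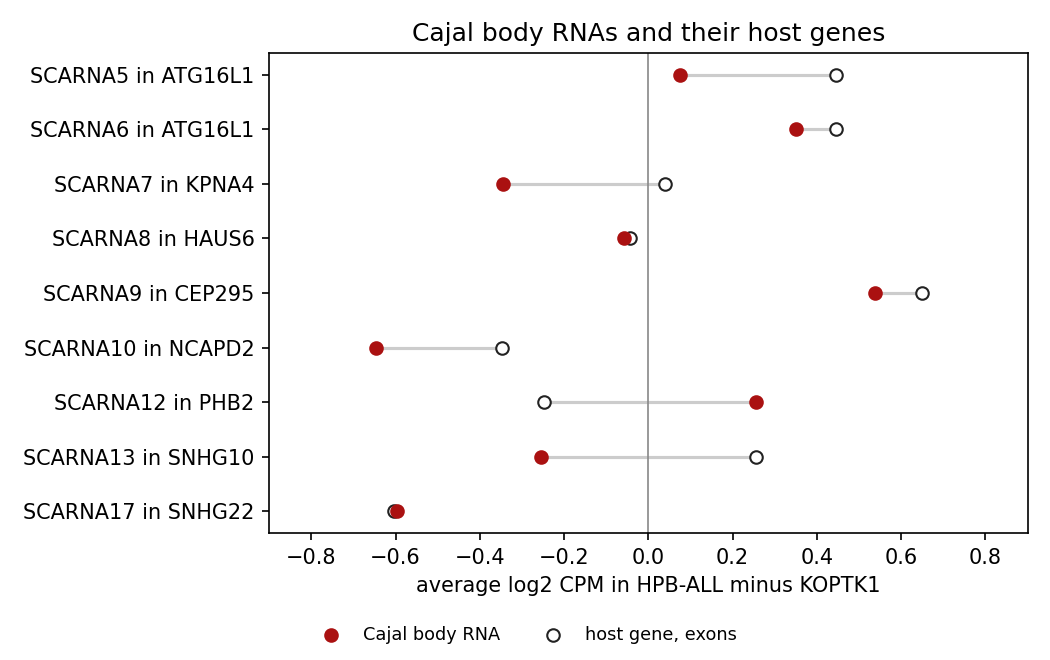
Difference in average log2 CPM, HPB-ALL minus KOPTK1, of each intronic scaRNA (filled circles) and of the exons of its host gene (open circles), joined by a grey line. The pairs of SCARNA8 and SCARNA17 nearly coincide, and those of SCARNA13, SCARNA12 and SCARNA7 lie on opposite sides of 0.

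The proteins that scaRNAs work with were expressed in both lines, and none of the 17 protein genes listed or TERC differed by 2-fold between them. All 18 were at 1 RPKM or more in both lines, where 6.94% of genes differed by that much, so a count of 0 in 18 is near the background. The H/ACA core, which binds SCARNA8, SCARNA13 and the H/ACA domains of the composite RNAs, was slightly higher in HPB-ALL for 4 of 4 genes: DKC1 by 0.27 (46.6 against 38.6 RPKM), NOP10 by 0.26, NHP2 by 0.14 and GAR1 by 0.12. Of the 22778 genes past the filter, 11031 were higher in HPB-ALL. All 4 differences were below the median absolute difference of these genes, 0.32. SHQ1 had 59.5 RPKM in HPB-ALL and 43.3 in KOPTK1, over both shRNA groups together, a difference of 0.46. NAF1, which takes the place of GAR1 during assembly, had 14.6 and 14.7 RPKM. The median difference of the H/ACA core was 0.20 while SCARNA13 and SCARNA8 had -0.25 and -0.06.

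Of the box C/D proteins that bind SCARNA2, SCARNA7, SCARNA9 and SCARNA17, the methyltransferase FBL had 114 and 110 RPKM, NOP56 101 and 105, NOP58 84.1 and 63.0, and SNU13 54.2 and 40.0, with a median difference of 0.24. Among the Cajal body proteins, COIL had 10.2 RPKM in HPB-ALL and 14.7 in KOPTK1 (-0.52), and WRAP53, which binds the CAB box, had 8.80 and 6.61 (0.41). TGS1, the cap methyltransferase, had 23.9 and 32.1 RPKM, GEMIN2 11.4 and 10.1, and NOLC1 86.0 and 72.7. NOP53, which was in the same list but is a nucleolar ribosome biogenesis factor, had 160 and 192. SMN1 had 27.2 and 33.6 RPKM and is uncertain because it shares nearly all of its sequence with SMN2. Without NOP53, 3 of the 6 genes were higher in HPB-ALL and 3 in KOPTK1, with a median difference of -0.07. With NOP53 the median was -0.27, the value of NOP53 itself.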

How the data were processed

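RNA-seq tables of 12 libraries were analysed, 1 table for HPB-ALL and 1 for KOPTK1. Per the labels, the submitters' processing notes name Trimmomatic 0.36, STAR 2.5.4b, Picard 2.18.7, featureCounts 1.6.2 and edgeR 3.22.3 with build hg38, without their roles. The average log2 CPM of each gene across a line's 6 libraries is the authors' value, each deposited table being normalized separately. Of the deposited columns, 12 hold single libraries under bare numbers that fit no sample label, and these were left out. The log2 fold change, F statistic, p-value and FDR columns hold the authors' own comparison and were not used either, so the edgeR test planned for SHQ1 shRNA was not made. How reads over overlapping rows were counted, and whether strand was used, is not given in the sources used here.

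Mean RPKM was the unlogged average CPM per kilobase of listed length. Genes whose average log2 CPM reached 0 in either line were compared (host genes were shown whatever their level), and a difference of at least 2-fold was counted. Symbols matched 95.9% of identifiers. Sequences came from GENCODE release 44 transcripts on GRCh37. The start of SCARNA2 and the rows lying within SCARNA9 were placed on them by hg38 coordinates, so both builds were combined there. Python 3.11.15, pandas 2.3.3 and Biopython 1.88 were used, and the steps were tested on simulated data. The genes named were the members, their hosts, the listed RNP and Cajal body genes, other SCARNA genes past the filter and the nearest SNORA or SNORD gene. The members and lists were chosen with earlier results of these data known, and the blood cell markers and the unnamed rows that share bases with members after their values were seen, as were the Cajal body list without NOP53, the host comparison with rows summed and that without hosts below the filter.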

Additional observations from a re-analysis of the deposited data

How the results depend on the processing

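No paired analysis was possible because the library columns carry no replicate number or label. For the same reason the alternatives planned for SHQ1 shRNA against control shRNA (other normalizations, filters and pseudocounts, leaving out each library, and the replicate block) were not run. The count of members that differed by 2-fold between the lines was 0 with centring on the median difference, with every gene listed, with genes at 1 RPKM or more in both lines, and with rows sharing bases summed (chosen after the data were seen), and it was 2 at 1.5-fold. The share of all genes past 2-fold was 13% with centring, 14.5% with every gene listed and 6.94% at 1 RPKM or more in both lines. The number of members at the same rank in both lines was 8 by mean CPM, against 5 by mean RPKM, since members differ in length, and 5 with all rows of a symbol or rows sharing bases summed. Among other SCARNA genes, RNP and Cajal body genes and TERC, the number past 2-fold was 0 of 24 past the filter, and 1 (SCARNA16, with 1.61 and 0.713 RPKM) among the 40 at 1 RPKM or more in either line and among all 50 listed, since these settings let in rows of lower counts. Of the 20 ranks (10 members in 2 lines), 7 moved by mean CPM and 6 with rows sharing bases summed, where shared reads may be counted in each row. No member's difference changed sign under centring or summing. With no library values, the precision of each average is unknown.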
